A study of Sus scrofa with 40 samples.

Results

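Messenger RNA of the hamstring muscle (HM) of Chalu black pigs was set against that of the longissimus dorsi muscle (LDM), over all 21280 genes of the deposited count table. The hamstring is a muscle of the hind leg and the longissimus a long muscle of the back. The comparison used 20 of the 40 libraries of the series, HM1 to HM10 and LDM1 to LDM10, chosen by their titles. The other 20 libraries came from the trapezius muscle (TM) and the pork belly (PB) and entered the fit, so that all cuts shared an estimate of the spread. All animals were males by a single sire, raised together and fasted before slaughter. All tissue came from the carcass's left side, with fascia avoided. The labels give neither the age of the pigs nor whether equally numbered libraries came from the same pig.

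Total counts ran from 13301341 to 17122790 per HM library and from 14153884 to 17441798 per LDM library. Desmin (DES), the intermediate filament of striated and smooth muscle, checked the tissue and had 7505, 9927 and 11818 CPM in HM, against 6849.6, 9177 and 11424 CPM in LDM (CPM, counts per 1000000 of the library total). Where 3 values are given for a cut, they are the lowest, the median and the highest of its 10 libraries. A pair of HM libraries stood apart. Over the 1000 most variable genes, HM6 was closest to the mean of TM and HM9 to that of LDM, while the other 8 HM libraries and all 10 LDM libraries were closest to their own cut. HM9 had the lowest summed level of the slow fibre genes in HM, and HM6 the highest sums of matrix, endothelial, smooth muscle and Schwann cell markers. Both carried HOXA13, a distal limb gene described below, at 13.4 CPM in HM6 and 13.8 CPM in HM9. Counts of genes were therefore also taken without this pair.

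Skeletal muscles are mixtures of slow fibres, which burn fat and sugar in many mitochondria and resist fatigue, and fast fibres, which break down glycogen and contract more quickly. Each fibre class has its own forms of myosin, troponin, tropomyosin and the calcium pump, encoded by separate genes. Muscles also keep a record of where they formed in the embryo: HOX genes, which lie in clusters ordered as they are used along the body, stay active in adult muscle and its connective tissue, with high-numbered groups used towards the tail and the tips of the limbs.

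Of 11713 genes with enough counts to be tested, 1932 were higher and 1873 lower in HM than in LDM at an adjusted p under 0.05, which is 32.5% of the genes tested. By direction that is 16.5% higher and 16.0% lower. A change of at least 2-fold as well was found for 629 genes higher and 327 genes lower, or 8.16% of the genes tested (5.37% higher and 2.79% lower). The median log2 change over all tested genes was 0.08 (log2 changes are HM minus LDM throughout). Without HM6 and HM9 the counts were 1632 higher and 2168 lower. With so large a background, the count of passing members says little of a list by itself. Lists are described by their counts, and many also by their medians, beside these shares.

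HOX genes made up 3 of the 10 highest and 3 of the 10 lowest log2 changes that the naming rule picked. HOXA13, the last gene of the HOXA cluster and known for patterning the distal limb, had 7.11, 13.9 and 26.9 CPM in HM and no count in any LDM library. Its 2310 counts in HM made it at least 791-fold higher in HM, against a floor of 3 counts over the LDM cut (adjusted p = 8.82e-11). HOXA11, also a distal limb gene, had 3.74, 7.01 and 9.88 CPM in HM, against 0, 0 and 0.287 CPM in LDM. The 2 cuts did not overlap, and 1075 against 7 counts gave a ratio of 158 (95% exact counting interval 76.3 to 393). Its adjusted p was 1.4e-11. HOXC11 had 3.75, 8.40 and 11.5 CPM in HM, against 0, 0 and 0.917 CPM in LDM, and the ratio of its counts was 45.9 (95% exact counting interval 31.4 to 69.9). Its adjusted p was 1.29e-08. Such intervals and floors cover counting error only. In whole tissue, fewer cells that use a gene and less RNA per cell cannot be told apart.

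HOXA10, the neighbour of HOXA11, rose as well, by 3.20 ± 1.03 on the log2 scale (adjusted p = 0.0155), with 6.31, 20.2 and 39.1 CPM in HM, against 0, 0.0697 and 8.94 CPM in LDM. It was higher in HM in 10 of 10 equally numbered pairs of libraries, but the cuts overlapped because LDM3 and LDM4 had 8.26 and 8.94 CPM, while no other LDM library passed 0.212 CPM. LDM3 and LDM4 also held 25.0 and 24.7 CPM of HOXA9, and 83.8 and 80.6 CPM of HOXC10, against at most 2.26 and 20.9 CPM in the other 8. HOXC10 did not pass, with 30.8, 61.5 and 81.2 CPM in HM, against 5.6, 14.2 and 83.8 CPM in LDM, and a log2 change of 0.93 ± 0.56 (adjusted p = 0.2). It passed with the library number as a block (adjusted p = 0.0409), and without LDM3 and LDM4 its log2 change was 2.21 (adjusted p = 0.00252). Without these 2 libraries, the fitted log2 change of HOXA10 was 8.01, and those of HOXA11 and HOXC11 were 8.76 and 7.95. The call of HOXA10 was lost in the Wald test of DESeq2 (adjusted p = 0.0976), and its log2 change was 4.94 with the block. Of 12 HOX genes of groups 10 to 13 that were looked for, 5 had enough counts to be tested, and 4 of them rose.

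Genes in the middle of the clusters went in opposite directions by cluster. In the HOXC cluster, HOXC8, HOXC6 and HOXC9, which pattern the trunk, were lower in HM. HOXC8 had 0.478, 0.701 and 1.45 CPM in HM, against 17.1, 31.0 and 38.7 CPM in LDM, without overlap (log2 change -5.27 ± 0.62, adjusted p = 2.16e-07). HOXC6 had 0.464, 1.30 and 4.42 CPM in HM, against 10.2, 19.0 and 36.7 CPM in LDM, again without overlap (log2 change -3.87 ± 0.51, adjusted p = 1.42e-06). HOXC9 had 2.12, 4.04 and 7.54 CPM in HM, against 7.80, 19.8 and 25.9 CPM in LDM (log2 change -2.20 ± 0.51, adjusted p = 0.0011), and every HM library was below every LDM library. HOXC5 fell by 4.22 on the log2 scale (adjusted p = 1.37e-05), to 23 counts over the HM cut against 447 over the LDM cut. The log2 change of HOXC5 without HM6, which held its highest HM value, was -4.84. In the HOXA cluster, by contrast, HOXA9 and HOXA7 were higher in HM, with 17.7, 40.6 and 60.6 CPM in HM, against 0.274, 0.966 and 25.0 CPM in LDM for HOXA9 (log2 change 2.64 ± 0.98, adjusted p = 0.0351). HOXA7 had a log2 change of 1.22 ± 0.48 (adjusted p = 0.0463). Neither passed in the fit with no filter or without HM6 and HM9, where the adjusted p was 0.0533 for HOXA9 and 0.0803 for HOXA7, and the log2 change of HOXA9 without LDM3 and LDM4 was 5.38. In the HOXD cluster, HOXD1, HOXD8 and HOXD9 were lower in HM (log2 changes -2.54 ± 0.71, -1.83 ± 0.59 and -1.62 ± 0.56). The call of HOXD9 was lost without LDM3 and LDM4 (adjusted p = 0.0537). In groups 6 to 9, 2 of the 9 tested genes rose and 5 fell, and in groups 1 to 5, 2 of 11 fell. The pig HOXA genes lie together on chromosome 18 (HOXA13 at 45373440 to 45380300, HOXA10 at 45393712 to 45403257) and the HOXC genes on chromosome 5 (HOXC11 at 19185746 to 19189023, HOXC8 at 19221760 to 19225846), in Sscrofa11.1 coordinates of the deposited table.

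**Figure D1:**
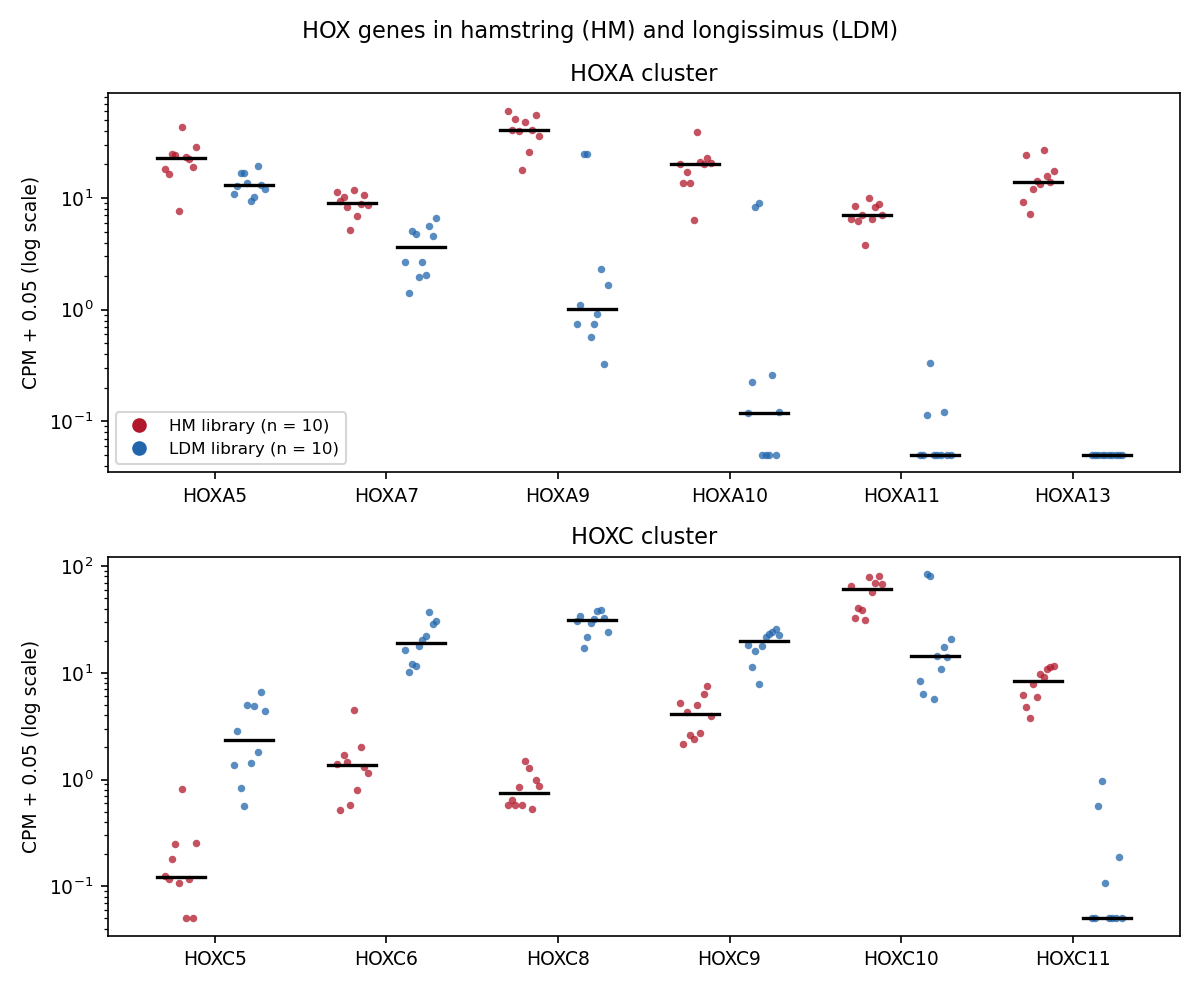
CPM plus 0.05, on a log axis, of 6 HOXA and 6 HOXC genes in each library, HM in red at the left of each pair and LDM in blue, with the median as a bar. HOXA11, HOXA13 and HOXC11 were near or at 0 in LDM, HOXC6, HOXC8 and HOXC9 were lower in HM without overlap, and 2 LDM libraries stood high for HOXA9, HOXA10 and HOXC10.

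Other factors that mark position in the embryo also differed. TBX4, a hind limb factor, was below the filter, yet it had counts in 10 of 10 HM libraries and in 1 of 10 LDM libraries, 165 counts against 2 (log2 change 5.63 ± 0.66, adjusted p = 6.44e-07 in the fit with no filter). PITX1, which acts before TBX4 in the hind limb, had 45 counts in HM and 3 in LDM and did not pass in that fit (adjusted p = 0.0533). In TM and PB, PITX1 had 37 and 214 counts and TBX4 had 5 and 0. TBX5, the forelimb counterpart of TBX4, had 21 counts in HM and 1 in LDM (adjusted p = 0.0108 in that fit), and HOXD10 had 48 and 108 (adjusted p = 0.299). LDM3 and LDM4 held 1.63 and 4.36 CPM of HOXD10, while no other LDM library passed 0.211 CPM and no HM library 1.07 CPM. LBX1, a factor of migrating muscle precursors, had 9.43, 16.0 and 28 CPM in HM, against 6.08, 9.47 and 15.5 CPM in LDM (log2 change 0.84 ± 0.38, adjusted p = 0.0856). It passed with the block (adjusted p = 0.0404), in limma-voom (adjusted p = 0.00759) and in the fit of the HM and LDM libraries alone (adjusted p = 0.00934). SHOX2, a factor of limb growth, rose by 1.97 ± 0.34 log2 units with 2.28, 4.60 and 27.3 CPM in HM, against 0.260, 1.52 and 3.25 CPM in LDM, and the mesenchymal factor PRRX1 rose by 1.66 ± 0.30 log2 units. TBX2 and MEOX2 rose by 1.25 ± 0.22 and 0.89 ± 0.19 log2 units. ZIC1, a marker of dorsal somite derivatives, had a log2 change of -1.5 ± 0.48 (adjusted p = 0.0152). IRX3 and MEIS1 fell by 3.17 and 2.18 on the log2 scale, IRX3 without overlap between the cuts, though its call was lost in limma-voom (adjusted p = 0.059). SIM1 fell to 0 counts in most HM libraries: 7 of 10 had none, and HM6, at 2.35 CPM, was the only one above 0.207 CPM. LDM had 1.06, 2.13 and 10.2 CPM of SIM1, and the log2 change was -4.01 ± 0.72 (adjusted p = 7.77e-05), or -6.23 without HM6. Its relative SIM2 was higher in HM, with 0, 21.7 and 38.4 CPM in HM, against 0.90, 2.44 and 9.06 CPM in LDM (log2 change 2.57 ± 0.79, adjusted p = 0.0119), and here HM6 was the library at 0. Without LDM3 and LDM4 its log2 change was 3.25. TBX15, a factor of fast fibres and of trunk and limb muscle, was abundant in both cuts, with 504, 623 and 1000.5 CPM in HM, against 386, 598 and 909 CPM in LDM (log2 change 0.05 ± 0.17, adjusted p = 0.851). Of 27 tested genes in the list of hind limb and other positional factors, 10 rose, 7 fell and 10 did not pass.

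Slow fibre genes were higher in HM as a group. All 14 tested members of the slow fibre list rose, with a median log2 change of 1.6, and all 14 also rose without HM6 and HM9. MYBPC1, the slow form of myosin-binding protein C, had 3748, 6758 and 10211 CPM in HM, against 1347, 2279 and 2996 CPM in LDM. Its lowest HM library was above its highest LDM library (log2 change 1.53 ± 0.16, adjusted p = 1.54e-08). MYL2, the slow regulatory light chain, had 1601, 5356 and 10029 CPM in HM, against 762, 1372 and 1815 CPM in LDM, and 9 of 10 HM libraries were above all LDM libraries (log2 change 1.91 ± 0.32, adjusted p = 2.88e-05). TNNC1 and MYH7B, slow troponin C and a slow-type myosin, rose by 1.83 ± 0.30 and 1.94 ± 0.32 log2 units. MYH7, the slow myosin heavy chain itself, had 7830.0, 26804 and 41612 CPM in HM, against 4277, 8807 and 14273 CPM in LDM (log2 change 1.43 ± 0.33, adjusted p = 0.000925), higher in HM in 9 of 10 numbered pairs. TNNI1, slow troponin I, rose by 1.49 ± 0.32 log2 units. CSRP3, a Z-disc protein of slow fibres, and MYOZ2, slow calsarcin, had the largest changes of the list, 2.57 ± 0.63 and 2.24 ± 0.39. The log2 change of CSRP3 without LDM3 and LDM4 was 3.17. HM9 held the lowest HM value of MYBPC1.

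Fast fibre genes moved the other way. Of 15 tested members, 14 fell, with a median log2 change of -0.87. TPM1, the alpha tropomyosin that prevails in fast fibres, had 1868, 3952 and 6733 CPM in HM, against 7661, 12040.2 and 15248 CPM in LDM, without overlap (log2 change -1.49 ± 0.26, adjusted p = 5.64e-05). ACTN3, the alpha-actinin of the fastest fibres, had 827, 3506 and 8073 CPM in HM, against 8615, 10084 and 14591 CPM in LDM, and every HM library lay below every LDM library (log2 change -1.66 ± 0.35, adjusted p = 0.00042). CASQ1 and MYOZ1, fast calsequestrin and calsarcin, fell by 1.05 and 0.79 on the log2 scale. MYH4, MYH1 and MYH2, the heavy chains of fast fibres, share a gene model in the table (ENSSSCG00000029441), written MYH4-MYH1-MYH2. This model had 7038, 20226 and 32354 CPM in HM, against 23962, 29540.2 and 45032 CPM in LDM, and a log2 change of -0.70 ± 0.23 (adjusted p = 0.019). The values of the 3 chains cannot be told apart. TNNI2, fast troponin I, fell by 0.82 log2 units (adjusted p = 0.00646), and its model overlaps that of TNNT3 on the same strand, so reads of the pair may be shared. The member that did not pass was parvalbumin (PVALB), a calcium buffer of fast fibres, with 0.597, 7.72 and 109.9 CPM in HM, against 2.52, 7.98 and 17.5 CPM in LDM (log2 change 1.35 ± 0.59, adjusted p = 0.0725) and its highest value in HM9. The log2 change of PVALB was -0.09 without HM6 and HM9, -0.03 in limma-voom and 0.60 with the block.

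Shares of paired isoforms, taken per gene length from the deposited FPKM values, put these changes on a common scale. Each was compared by a two-sided permutation test with 100000 resamples, adjusted over 13 measures, of which 12 are isoform shares and 1 is the mitochondrial share. MYH7 made up 53.4% ± 21.3 of MYH7 and the fast myosin model together in HM, against 22.1% ± 7.30 in LDM (SD, n = 10 each; adjusted permutation p = 0.00043). MYBPC1 made up 48.5% ± 14.1 of MYBPC1 and MYBPC2 in HM, against 11.7% ± 2.63 in LDM, and this share was higher in all 10 HM libraries than in any LDM library (adjusted permutation p = 8.7e-05). The raw p of 2e-05 behind the MYBPC1 and TPM3 values is the smallest that 100000 resamples can give. For tropomyosin, TPM3 made up 39.6% ± 20.2 of TPM3 and TPM1 in HM, against 7.5% ± 3.04 in LDM (adjusted permutation p = 8.7e-05). For the calcium pump, ATP2A2 made up 23.9% ± 14.7 of ATP2A2 and ATP2A1 in HM, against 4.49% ± 1.99 in LDM (adjusted permutation p = 0.00026). Troponin I stayed mostly fast in both cuts, with 15.2% ± 10.8 TNNI1 in HM, against 3.03% ± 1.17 in LDM (adjusted permutation p = 0.00026). The HM libraries ran from 21.7% of MYH7 in HM9 to 80.2% in HM5, the LDM libraries from 8.54% in LDM8 to 32.0% in LDM9. HM9 and HM7, at 27.5%, lay inside the LDM range, and the other 8 HM libraries lay above it.

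**Figure D2:**
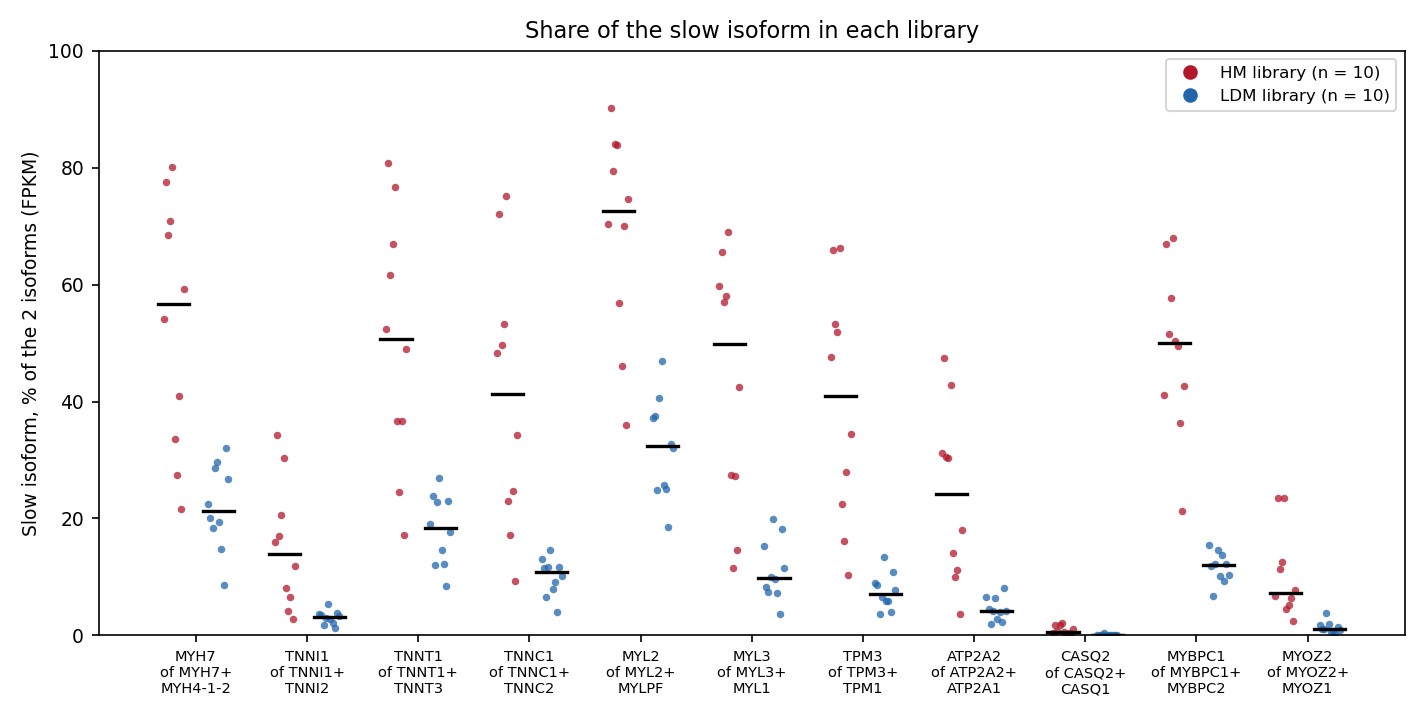
Share of the slow isoform in the summed FPKM of a slow and a fast isoform, in percent, for 11 of the 12 pairs of genes, with each HM library in red at the left and each LDM library in blue, and the median as a bar. HM lay higher in every pair and was wider, and the MYBPC1 share was without overlap.

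Glycogen breakdown and glycolysis fell nearly throughout. Of 16 tested members, 14 fell, 1 rose and 1 did not pass, with a median log2 change of -1.38. TPI1, triose-phosphate isomerase, had 436, 980.5 and 1503 CPM in HM, against 1601, 2486 and 3182 CPM in LDM, without overlap (log2 change -1.44 ± 0.23, adjusted p = 1.4e-05). PGAM2, the muscle phosphoglycerate mutase, had 647, 1407 and 2291 CPM in HM, against 2922, 3399.6 and 4626 CPM in LDM, and GPI and PHKG1, which encode glucose-6-phosphate isomerase and a subunit of phosphorylase kinase, fell by 1.35 and 1.66 on the log2 scale. PGAM2 fell by 1.53 log2 units (adjusted p = 3.49e-05). ENO3, muscle enolase, was lower in every HM library than in any LDM library, with a log2 change of -1.45 ± 0.26. LDHA, the lactate dehydrogenase subunit of fast muscle, had 353, 1542 and 3382 CPM in HM, against 3255, 5142 and 6466 CPM in LDM (log2 change -1.73 ± 0.36, adjusted p = 0.000368). The member that rose was HK2, the hexokinase that traps glucose taken up from blood, with 52.6, 168 and 1279.6 CPM in HM, against 8.83, 24.9 and 89.4 CPM in LDM (log2 change 3.02 ± 0.72, adjusted p = 0.00156). HK2 was higher in HM in 10 of 10 numbered pairs, with its highest value in HM5, and its log2 change without LDM3 and LDM4 was 3.82. Of 7 genes of glycogen synthesis, 1 rose and 2 fell: the branching enzyme GBE1 rose by 1.0 ± 0.22 log2 units, the targeting subunit PPP1R3A fell by 1.55 log2 units, and the primer GYG1 fell by 0.34 log2 units (adjusted p = 0.0419) in a call lost in 6 of 11 alternatives. GAPDH had 7 counts in HM and 16 in LDM at its gene model and was not tested.

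Transcripts of the mitochondrial genome were higher in HM. They took 9.12% ± 1.53 of all counts in HM and 4.97% ± 0.827 in LDM (SD, n = 10 each), and the lowest HM library, at 6.51%, was above the highest LDM library, at 6.05% (adjusted permutation p = 8.7e-05). All 12 tested mitochondrially encoded genes rose, with a median log2 change of 1.10. ND2, a subunit of complex I, had 1462, 2354 and 2708 CPM in HM, against 391, 847 and 1096 CPM in LDM, without overlap (log2 change 1.45 ± 0.19, adjusted p = 1.08e-06). ATP6, of the ATP synthase, had 3903, 5147 and 5824 CPM in HM, against 1241, 2521 and 2839 CPM in LDM, also without overlap (log2 change 1.10 ± 0.16, adjusted p = 3.7e-06), and its model overlaps COX3 on the same strand. ND3 and COX3 rose by 1.14 ± 0.16 and 0.78 ± 0.13 log2 units. ND6, the member on the other strand of the mitochondrial genome, had the largest change of the list, 1.93 ± 0.35.

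The nuclear genes of the same complexes moved less. Of 45 tested, 14 rose and 31 did not pass, with a median log2 change of 0.25, beside 0.08 over all genes. Without HM6 the count was 20 higher. NDUFA4, a subunit of cytochrome oxidase, had 142, 201 and 233 CPM in HM, against 92.1, 134 and 175 CPM in LDM (log2 change 0.54 ± 0.11, adjusted p = 0.00029). UQCRFS1, the iron-sulphur protein of complex III, rose by 0.56 ± 0.13 log2 units, COX5B by 0.57 ± 0.13 and ATP5MC3, a membrane subunit of the ATP synthase, by 0.62 ± 0.15. In the citric acid cycle and the step that feeds it, 8 of 20 rose and 1 fell, with a median of 0.24. PDK2, a kinase that turns pyruvate dehydrogenase off, had 258, 379 and 479 CPM in HM, against 149, 182 and 216 CPM in LDM, without overlap (log2 change 0.99 ± 0.15, adjusted p = 1.13e-05), and PDHA1, its target subunit, rose by 0.76 ± 0.14 log2 units. MDH1 and MDH2, the cytosolic and mitochondrial malate dehydrogenases, rose by 0.77 ± 0.17 and 0.49 ± 0.13 log2 units, and the member that fell was IDH3G, a subunit of isocitrate dehydrogenase, by 0.32.

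Of 22 tested genes by which fatty acids are taken up and oxidised, 13 rose and 2 fell, with a median log2 change of 0.47. DECR1, which prepares unsaturated fatty acids for oxidation, had 18.6, 41.8 and 64.4 CPM in HM, against 6.13, 20.8 and 29.2 CPM in LDM (log2 change 1.03 ± 0.17, adjusted p = 3.49e-05). CPT2, which reforms acyl-CoA inside the mitochondrion, had 25.8, 65.4 and 95 CPM in HM, against 11.2, 26.6 and 41.0 CPM in LDM (log2 change 1.29 ± 0.24, adjusted p = 0.000121), with its lowest HM value in HM9. ACAA2 and HADHB, thiolases of the last step of the cycle, rose by 1.01 ± 0.19 and 0.99 ± 0.19 log2 units. LPL, the lipase that frees fatty acids from lipoproteins, rose by 1.11 ± 0.31 log2 units. The members that fell were UCP3, the uncoupling protein of skeletal muscle, with 59.3, 244 and 710.1 CPM in HM, against 461, 777 and 911 CPM in LDM (log2 change -1.36 ± 0.40, adjusted p = 0.00762), and SLC25A20, the acylcarnitine carrier, with 23.8, 40.6 and 54.7 CPM in HM, against 29.4, 60.7 and 72.9 CPM in LDM (log2 change -0.56 ± 0.13, adjusted p = 0.00132). In lipid synthesis, 6 of 19 rose and 1 fell: MLXIPL, a carbohydrate-sensing factor, rose by 2.37 ± 0.47 log2 units, GPAM, the first enzyme of triglyceride synthesis, by 1.67 ± 0.32, ACACA, acetyl-CoA carboxylase, by 0.99 ± 0.19 and FADS1, a desaturase, by 1.25 ± 0.25. The member that fell was the malic enzyme ME1, by 0.80. FASN and SCD did not pass. FASN had 14, 32.5 and 72.4 CPM in HM, against 18.3, 38.5 and 45.1 CPM in LDM (log2 change -0.06 ± 0.28, adjusted p = 0.879), and SCD had a log2 change of 0.66 ± 0.38 (adjusted p = 0.187).

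Of 12 tested markers of fat cells, 1 rose and 1 fell. AQP7, the glycerol channel, which skeletal muscle also makes, rose by 1.5 ± 0.34 log2 units, and GPD1, which links glycolysis to glycerol and is also a muscle gene, fell by 1.28 log2 units. ADIPOQ, the adipocyte hormone adiponectin, had 0.616, 13.6 and 84.5 CPM in HM, against 3.41, 19.3 and 35.3 CPM in LDM (log2 change -0.20 ± 0.57, adjusted p = 0.806), and its highest value was in HM6. FABP4, a fatty acid carrier of adipocytes, did not pass (log2 change -0.57 ± 0.33, adjusted p = 0.178) but was lower in HM with the block (adjusted p = 0.0364). The summed level of the list was 796, 1305 and 1915 CPM in HM, against 1215, 1898 and 2461 CPM in LDM. GPD1 alone held 197 to 826 CPM of this sum in HM and 682 to 1472 CPM in LDM, so the sum does not measure fat cells alone. Leptin (LEP) was below the filter, with 47 counts in HM and 60 in LDM.

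Of 15 regulators of oxidative metabolism, 5 rose and 2 fell. ESRRB, a member of the oestrogen-related receptors that switch on mitochondrial genes, had 31.0, 63.2 and 84.6 CPM in HM, against 5.44, 11.2 and 26.0 CPM in LDM, without overlap (log2 change 2.29 ± 0.32, adjusted p = 3.53e-06). ESRRG, its relative in slow muscle, had 7.71, 22.3 and 72.4 CPM in HM, against 0.845, 6.78 and 18.1 CPM in LDM (log2 change 1.77 ± 0.52, adjusted p = 0.00875). The others that rose were ESRRA, a receptor of the same group, PPARA, which senses fatty acids, and the vessel growth factor VEGFA, with log2 changes of 0.72 ± 0.26, 1.11 ± 0.33 and 0.79 ± 0.28. The call of ESRRA was lost with the block (adjusted p = 0.0539) and that of VEGFA without HM6 (adjusted p = 0.053). PRKAG3, the glycogen-linked subunit of AMP kinase known for its effect on pork quality, had 9.28, 34.2 and 156 CPM in HM, against 76.3, 118 and 199 CPM in LDM (log2 change -1.57 ± 0.37, adjusted p = 0.00135), with 156 CPM in HM9 and at most 46.9 CPM in the other HM libraries. PRKAA2, the catalytic subunit of the same kinase in muscle, fell by 0.75 log2 units. PPARGC1A, the coactivator at the centre of this network, did not pass, with 21.4, 111 and 549.7 CPM in HM, against 10.7, 91.9 and 231 CPM in LDM (log2 change 0.70 ± 0.65, adjusted p = 0.42). Among 24 transcription factors linked to fibre type, 3 rose and 8 fell. MAF and MAFA, which drive the fastest myosin, fell by 1.80 and 1.69 log2 units. SOX6, a repressor of slow genes, had 5.37, 11.2 and 19.8 CPM in HM, against 16.5, 29.3 and 52.8 CPM in LDM (log2 change -1.54 ± 0.27, adjusted p = 4.53e-05), and MEF2A fell by 1.17 log2 units. NFATC2, of the calcineurin pathway that turns on slow genes, had 9.99, 22.6 and 82.7 CPM in HM, against 4.86, 12.6 and 27.9 CPM in LDM (log2 change 1.03 ± 0.36, adjusted p = 0.025). PROX1 and TEAD4 were the other factors that rose (log2 changes 0.95 ± 0.33 and 0.53 ± 0.20), and both calls were lost without LDM3 and LDM4 (adjusted p = 0.0503 and 0.069). That of TEAD4 was also lost with the block (adjusted p = 0.0685).

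**Figure D3:**
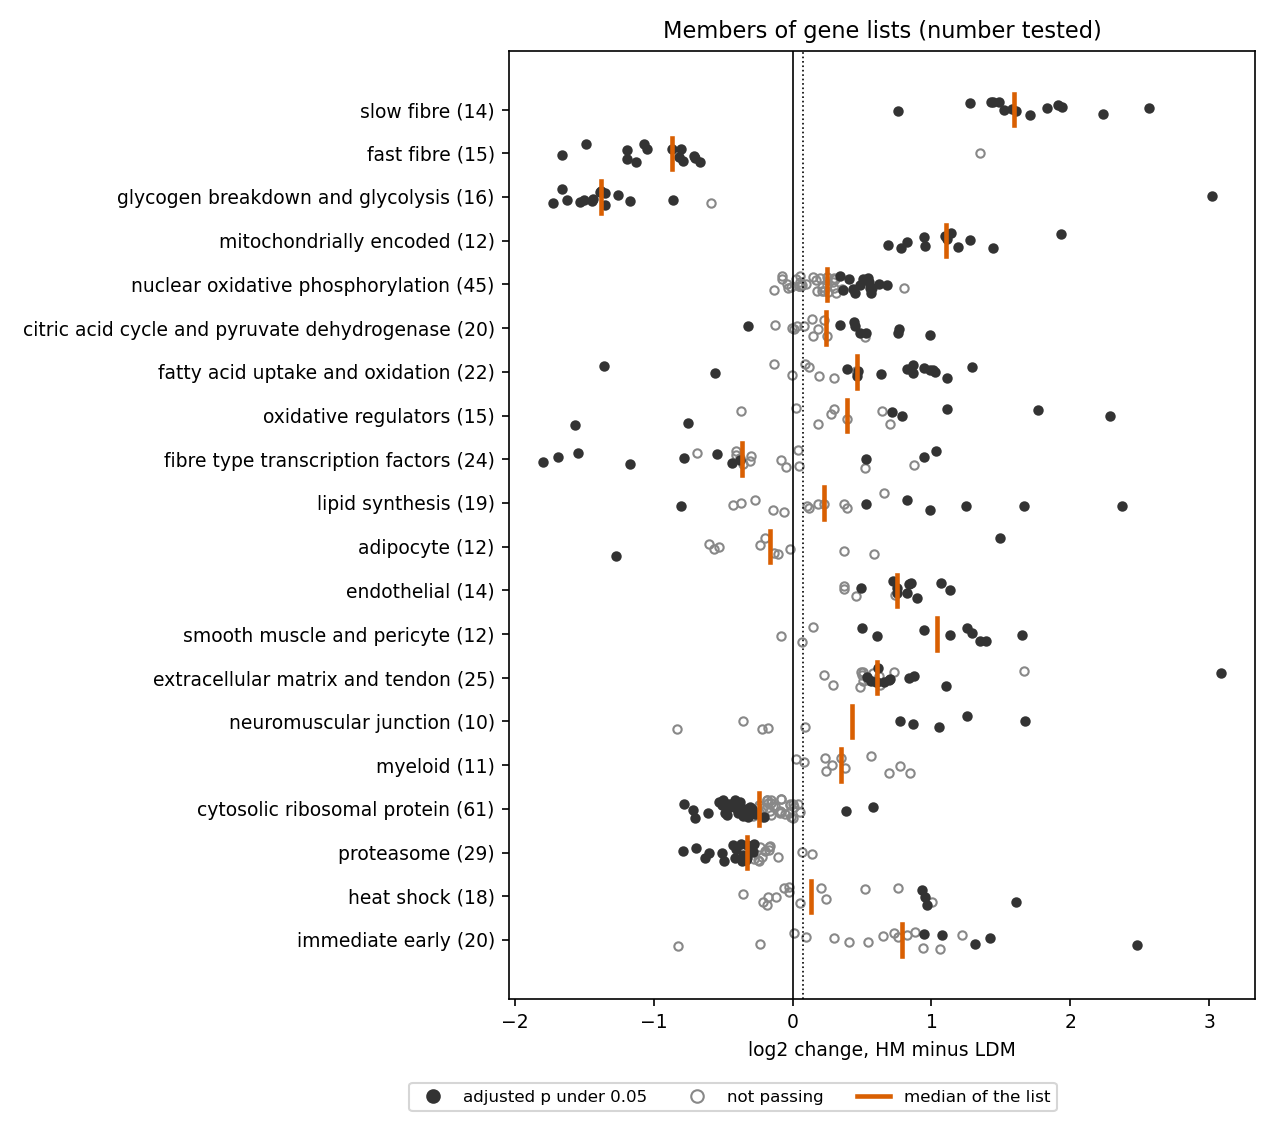
Log2 change, HM minus LDM, of every tested member of 20 gene lists, with the number tested in brackets, filled points for an adjusted p under 0.05 and an orange bar at the median of the list. The dotted line is the median of all tested genes, 0.08. Slow fibre genes lay at the right and fast fibre and glycolytic genes at the left, apart from PVALB and HK2.

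Outside these lists, MYLK4, a kinase of the myosin light chain kinase family, was among the 10 highest log2 changes. It had 19.0, 83.2 and 356 CPM in HM, against 1.24, 1.94 and 3.95 CPM in LDM, without overlap (log2 change 5.72 ± 0.53, adjusted p = 1.23e-09). It had 3.56, 7.52 and 20.7 CPM in TM and 0.866, 3.86 and 14.9 CPM in PB, with log2 changes of 3.77 (HM minus TM, adjusted p = 2.28e-06) and 4.45 (HM minus PB, adjusted p = 2.66e-08). Its model overlaps WRNIP1 on the other strand, which had 7013 counts in HM and 6698 in LDM. At the other end, IGFN1, a sarcomere-associated immunoglobulin-domain protein, had 12.1, 367 and 1167 CPM in HM, against 4145, 6349.5 and 8696 CPM in LDM, without overlap (log2 change -3.95 ± 0.77, adjusted p = 0.000189). SLC66A2, a member of a family of lysosomal transporters, had 6.42, 12.1 and 20.4 CPM in HM, against 26.6, 38.2 and 49.7 CPM in LDM (log2 change -1.6 ± 0.15, adjusted p = 1.52e-09).

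The remaining genes at the top of the ranking were less even between libraries. PRG4, the joint lubricant lubricin, had 0.0684, 13.1 and 143 CPM in HM, against 0, 0.542 and 2.34 CPM in LDM (log2 change 4.98 ± 1.04, adjusted p = 0.000374), or 5.81 without LDM3 and LDM4. METTL21C, a muscle lysine methyltransferase, had 2.48, 44.2 and 156 CPM in HM, against 0.959, 2.72 and 4.51 CPM in LDM (log2 change 4.37 ± 0.91, adjusted p = 0.000376). SBK2, a kinase, had 0.565, 8.84 and 34.4 CPM in HM, against 0.201, 0.349 and 0.573 CPM in LDM, and 9 of 10 HM libraries were above all LDM libraries. The log2 change of SBK2 was 4.82 ± 0.90 (adjusted p = 0.000111), and its call was lost in limma-voom (adjusted p = 0.052). DDN and CLCA4 rose by 4.34 ± 0.97 and 4.33 ± 0.68 log2 units, with counts near the floor in LDM. DDN was highest in HM6 and had a log2 change of 3.52 without it. CPN2 rested on few libraries, with 0, 0.242 and 13 CPM in HM and 2 counts over the whole LDM cut. The ratio of its counts was 166 (95% exact counting interval 45.7 to 1379). Its fitted log2 change was 6.65 ± 1.42 (adjusted p = 0.000473), or 6.01 with the block. Among genes that fell, WFIKKN2, a binding protein of myostatin, had 0.461, 1.42 and 11.4 CPM in HM, against 3.43, 28.4 and 45.9 CPM in LDM (log2 change -3.41 ± 0.60, adjusted p = 6.09e-05). Its log2 change without HM6 and HM9 was -4.09. TRPV3, a cation channel, had 0.0584, 0.477 and 2.63 CPM in HM, against 1.71, 8.37 and 25.9 CPM in LDM (log2 change -3.68 ± 0.68, adjusted p = 9.66e-05). NRN1 had 4 counts in HM and 209 in LDM, where 4 libraries had none (adjusted p = 0.00602). PCK1 fell by 3.69 log2 units (adjusted p = 0.00142) and by 2.85 with the block, but 15.3 CPM in LDM2 stood far above the next LDM library, at 1.23 CPM. Myostatin itself (MSTN), the brake on muscle growth, did not pass, with 0.622, 1.28 and 2.83 CPM in HM, against 0.423, 1.23 and 7.09 CPM in LDM (log2 change -0.65 ± 0.39, adjusted p = 0.201).

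**Figure D4:**
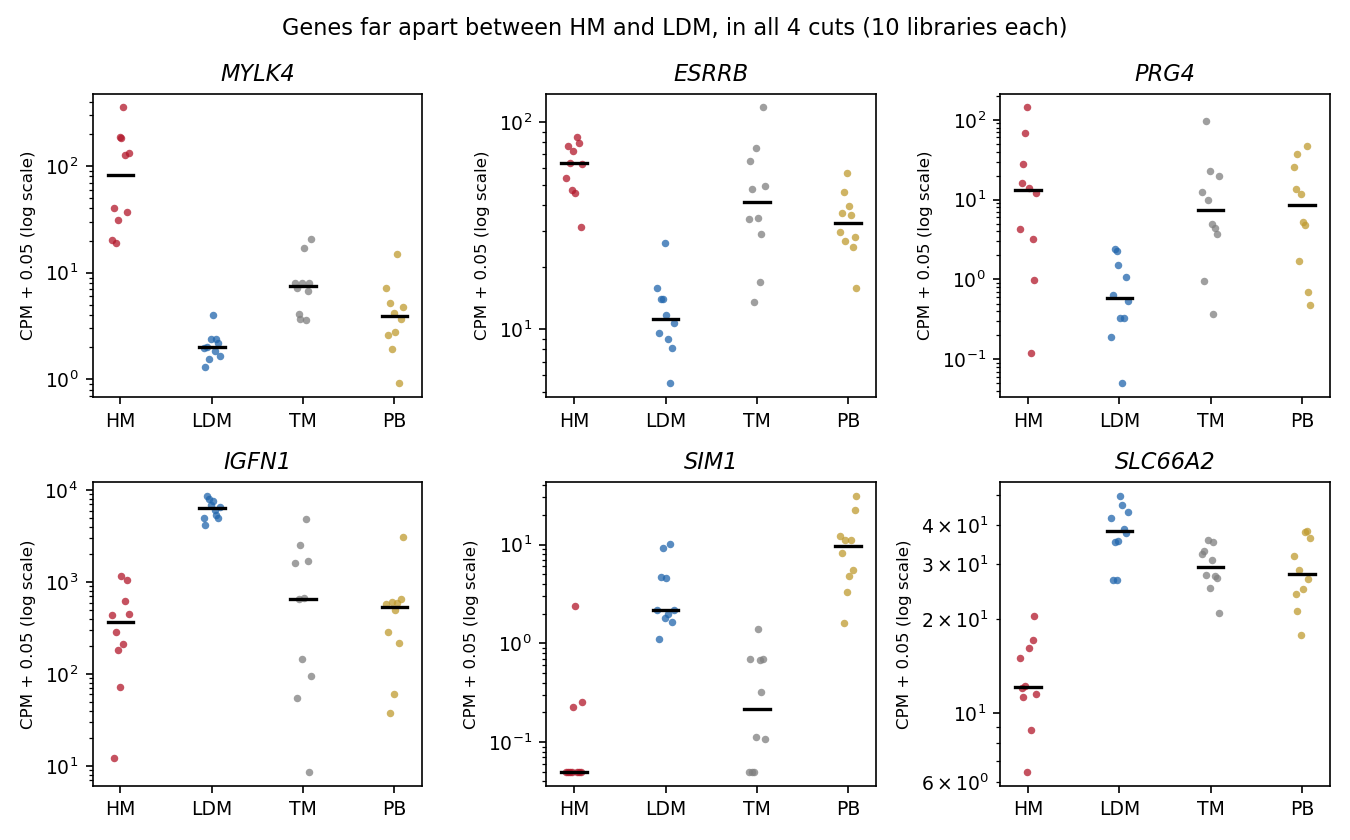
CPM plus 0.05, on a log axis, of 6 genes in the 10 libraries of each of the 4 cuts, with the median as a bar. The median of MYLK4 was higher and that of SLC66A2 lower in HM than in each other cut. MYLK4 in HM overlapped TM but not PB, and ESRRB, PRG4 and IGFN1 in HM overlapped TM and PB.

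Vessel genes were higher in HM. Of 14 endothelial markers, 10 rose, with a median log2 change of 0.75, and 10 also rose without HM6 and HM9. CDH5, the cadherin of endothelial junctions, had 74.6, 132 and 207 CPM in HM, against 54.1, 67.0 and 76.3 CPM in LDM (log2 change 1.07 ± 0.17, adjusted p = 1.86e-05). ERG, an endothelial transcription factor, had 15.3, 25.1 and 45.1 CPM in HM, against 6.27, 11.6 and 15.6 CPM in LDM (log2 change 1.13 ± 0.18, adjusted p = 1.9e-05), and EMCN, a sialomucin of capillaries and veins, and VWF, the clotting factor of endothelium, rose by 0.84 ± 0.16 and 0.75 ± 0.17 log2 units. The summed level of the endothelial list was 554, 978 and 1647 CPM in HM, against 473, 550.5 and 634 CPM in LDM, higher in HM in 10 of 10 numbered pairs. HM6 had the highest sum and HM9 the lowest.

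Of 12 tested smooth muscle and pericyte markers, 9 rose, with a median log2 change of 1.04. Without HM6, 6 rose and the median was 0.55. RGS5, a pericyte gene, had 47.9, 98.8 and 249 CPM in HM, against 21.2, 54.0 and 66.3 CPM in LDM (log2 change 1.14 ± 0.19, adjusted p = 3.58e-05), and CSPG4, of the same cells, rose by 1.39 ± 0.29 log2 units. MYLK, the light chain kinase of smooth muscle, rose by 1.26 ± 0.31 log2 units, or 0.55 without HM6. ACTA2, smooth muscle actin, had 147, 316 and 3168 CPM in HM, against 129.7, 204 and 285 CPM in LDM (log2 change 1.29 ± 0.34, adjusted p = 0.00402). The log2 change was 0.64 without HM6, which held 3168 CPM while the next HM library held 556. MYH11, smooth muscle myosin, rose in the full set (log2 change 1.65 ± 0.48, adjusted p = 0.00772) but not without HM6 (log2 change 0.54, adjusted p = 0.23) or with the block (adjusted p = 0.084).

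In the list of extracellular matrix and tendon genes, 12 of 25 rose, with a median of 0.61, and 8 rose without HM6. TNC, tenascin-C of tendon and of loaded or healing matrix, had 17.6, 152 and 441 CPM in HM, against 4.03, 17.2 and 42.4 CPM in LDM (log2 change 3.08 ± 0.64, adjusted p = 0.000378), higher in HM in 10 of 10 pairs. COL15A1, a basement membrane collagen, rose by 0.70 ± 0.19 log2 units, BGN by 1.10 ± 0.31 and SPARC by 0.62 ± 0.18. COL1A1, the main collagen of fascia and tendon, did not pass, with 120.0, 201 and 1059 CPM in HM, against 106, 182 and 289.5 CPM in LDM (log2 change 0.63 ± 0.39, adjusted p = 0.219) and its highest value in HM6. The summed level of the list was 2283, 3914 and 9794 CPM in HM, against 1671, 2708 and 3326 CPM in LDM. The part of tissue makeup in these changes was not tested.

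**Figure D5:**
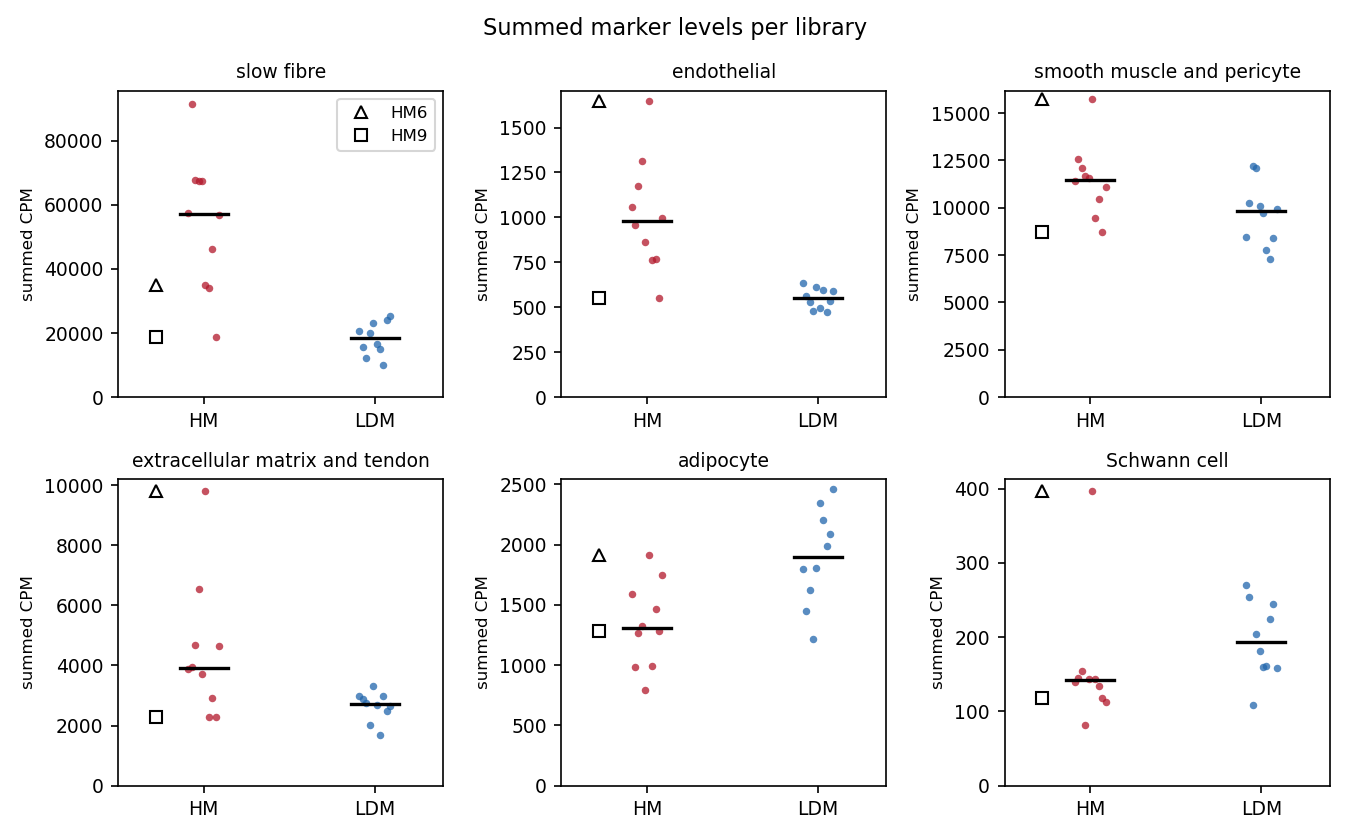
Summed CPM of 6 lists in each HM library (red, left) and LDM library (blue, right), with the median as a bar and the values of HM6 (triangle) and HM9 (square) repeated at the left. Among the HM libraries, HM6 was highest in every sum shown but that of slow fibre genes, in which HM9 was lowest. The smooth muscle and pericyte sum, 8725 to 15772 CPM in HM and 7307 to 12215 CPM in LDM, includes DES, also of striated muscle. DES alone held 7505 to 11818 CPM in HM and 6849.6 to 11424 CPM in LDM. The adipocyte sum includes GPD1, also a muscle gene.

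Of 10 neuromuscular junction genes, 5 rose: CHRNA1 and CHRNE, subunits of the acetylcholine receptor, rose by 1.68 ± 0.36 and 1.26 ± 0.34 log2 units, UTRN, utrophin, by 0.77 ± 0.21 and AGRN, the organiser agrin, by 0.87 ± 0.28 and COLQ, which anchors acetylcholinesterase, by 1.05 ± 0.40. The call of COLQ was lost with the block (adjusted p = 0.0611), without HM6 (adjusted p = 0.126) and without LDM3 and LDM4 (adjusted p = 0.0797). With the block, 4 of the 10 junction genes rose and 1 fell. Of 9 Schwann cell genes, 1 changed: MBP, myelin basic protein, had 18.6, 27.3 and 75.5 CPM in HM, against 65.9, 96.0 and 145 CPM in LDM (log2 change -1.45 ± 0.31, adjusted p = 0.000485). Among 13 genes of satellite cells and myogenesis, 2 rose and 2 fell, with a median log2 change of -0.29, while 16.5% of all genes tested rose and 16.0% fell. IGF2, a growth factor long studied in pig muscle, had 86.9, 118 and 181 CPM in HM, against 56.9, 67.3 and 84.4 CPM in LDM, without overlap (log2 change 0.77 ± 0.13, adjusted p = 2.93e-05). CDH15, the cadherin of satellite cells, fell by 0.96 log2 units (adjusted p = 6.62e-05), and it was also lower in HM than in TM and PB (log2 changes -0.73 and -0.67, adjusted p = 0.0265 and 0.00321). MYH8, the perinatal myosin, fell by 1.18 log2 units. MYOG rose by 1.0 ± 0.37 log2 units (adjusted p = 0.0363), a call lost without LDM3 and LDM4 and in limma-voom. In the edgeR fit, 0 of 11 myeloid and 0 of 2 lymphoid markers passed, while 2 and 0 had an unadjusted p under 0.05. DESeq2 called 0 and 0 of them, and limma-voom 4 and 0. PTPRC, on all white blood cells, had a log2 change of 0.56 ± 0.45 (adjusted p = 0.343). With the block, CSF1R and ITGAM, receptors of myeloid cells, passed (adjusted p = 0.0317 and 0.0454). Of 4 tested skin and epithelium genes, 1 changed: TP63, a factor of epithelial basal cells, fell by 1.68 log2 units. ALAS2, of haem synthesis in red blood cells, was the erythroid gene with enough counts to be tested (log2 change -0.37 ± 0.46, adjusted p = 0.563).

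Of 61 cytosolic ribosomal protein genes, 28 fell, 2 rose and 31 did not pass, with a median log2 change of -0.24. RPLP1 had 316, 376 and 513 CPM in HM, against 536, 639 and 755 CPM in LDM (log2 change -0.78 ± 0.10, adjusted p = 1.08e-06), and RPS16 and RPL10 fell by 0.72 and 0.61 log2 units. The members that rose were RPL3 and RPLP2, by 0.58 ± 0.18 and 0.39 ± 0.14. Of 29 proteasome genes, 17 fell, with a median of -0.33, and 10 fell without LDM3 and LDM4. PSMC3 and PSMC5, ATPases of its cap, fell by 0.79 and 0.70 log2 units, and PSMB6, a catalytic subunit, had 46.4, 56.7 and 68.9 CPM in HM, against 62.4, 82.4 and 109 CPM in LDM (log2 change -0.63 ± 0.10, adjusted p = 1.9e-05). Among calpains, cathepsins and ubiquitin ligases, 1 of 16 rose and 4 fell, with a median log2 change of -0.14. Over all genes tested, 16.5% rose and 16.0% fell. With the block, 2 of these 16 rose. CAPN3, the muscle calpain, had 238, 639 and 868 CPM in HM, against 666, 949.6 and 1424 CPM in LDM (log2 change -0.70 ± 0.16, adjusted p = 0.000821), NEDD4, a ubiquitin ligase, fell by 1.58 log2 units, and TRIM55, a ligase of the sarcomere, rose by 0.81 ± 0.28 log2 units. CAPN1, the ubiquitous calpain, and the ligase FBXO30 also fell, by 0.39 and 0.46. The call of CAPN1 was lost in the fit with no filter (adjusted p = 0.0501).

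Of 18 heat shock genes, 4 rose, with a median log2 change of 0.13, beside 0.08 over all tested genes, of which 16.5% rose. HSPB6, a small heat shock protein of muscle, had 627, 2513 and 6828 CPM in HM, against 586, 992 and 1222 CPM in LDM (log2 change 1.61 ± 0.31, adjusted p = 0.000141), HSPB3 rose by 0.97 ± 0.28 log2 units, CRYAB by 0.93 ± 0.32 and DNAJB5 by 0.95 ± 0.33. Of 20 immediate early genes, 5 rose, with a median log2 change of 0.79, and 8 rose with the block. CCN2, a matricellular growth factor, had 42.3, 109.8 and 291 CPM in HM, against 15.8, 52.1 and 87.4 CPM in LDM (log2 change 1.08 ± 0.28, adjusted p = 0.0031). EGR1 had 114, 204 and 4903 CPM in HM, against 9.69, 122 and 279.9 CPM in LDM (log2 change 2.48 ± 0.69, adjusted p = 0.0056, or 1.73 with the block), and 4903 CPM in HM5 stood far above the next HM library, at 734 CPM. ATF3, KLF4 and KLF6, transcription factors, were the others that rose (log2 changes 1.42 ± 0.51, 0.95 ± 0.37 and 1.32 ± 0.44). The call of ATF3 was lost without LDM3 and LDM4 (adjusted p = 0.0542). That of KLF4 was lost without HM6, alone or with HM9 (adjusted p = 0.0589 and 0.061), and with no filter (adjusted p = 0.0685). KLF4 also lost its call with DESeq2 size factors and with scaling without mitochondrial genes (adjusted p = 0.0507 in both). Of 12 genes of iron and meat colour, 3 rose, with a median log2 change of 0.35, and 6 rose with the block. ACO1, which doubles as an iron sensor, had 121, 174 and 256 CPM in HM, against 44.2, 71.1 and 113 CPM in LDM, without overlap (log2 change 1.19 ± 0.26, adjusted p = 0.000499), ALAS1, the first enzyme of haem synthesis, rose by 0.75 ± 0.18 log2 units and TFRC, the transferrin receptor, by 1.46 ± 0.47. The call of TFRC was lost in limma-voom (adjusted p = 0.0648). Myoglobin was not analysed here.

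Fewer genes passed between HM and TM than between HM and the other cuts. Between HM and TM, 42 genes were higher and 48 lower in HM, or 0.768% of the genes tested (0.359% higher and 0.410% lower), or 109 higher and 104 lower with the block, against 1649 higher and 1583 lower between HM and PB, or 27.6% (14.1% higher and 13.5% lower). Of the calls between HM and PB, 51.0% were higher in HM, and 37.0% were when the mitochondrially encoded genes were taken out before scaling. These comparisons share the HM libraries with that of HM and LDM, so values are given side by side only. Between HM and TM, the edgeR fit called 0 of 14 slow fibre, 0 of 15 fast fibre, 0 of 16 glycolytic and 0 of 12 mitochondrially encoded genes. Those with an unadjusted p under 0.05 numbered 1, 5, 1 and 11. DESeq2 and limma-voom also called 0 of the first 3 lists, and called 2 and 7 of the mitochondrially encoded genes, of which the block called 1. MYBPC1 had a log2 change of 0.01 (HM minus TM, adjusted p = 0.985) and TPM1 of 0.23 (adjusted p = 0.761). Between HM and PB, 10 of the 12 mitochondrially encoded genes were lower in HM, as with ND2 (log2 change -1.48, HM minus PB, adjusted p = 2.49e-07). Of 5 tested HOX genes of groups 10 to 13, 5 were higher in HM than in TM and 4 higher than in PB. Of 9 in groups 6 to 9, 2 were higher and 2 lower than in TM, and 2 were lower than in PB. Of 11 in groups 1 to 5, 1 was higher and 2 were lower than in each. HOXA13 had 2310 counts over the HM cut, against 0 over the TM cut (adjusted p = 6.79e-11) and 9 over the PB cut (adjusted p = 1.75e-10). HOXC11 had 1206 counts in HM, against 3 in TM (adjusted p = 1.04e-10) and 9 in PB (adjusted p = 6.09e-10). HOXA9 and HOXA10 had 6165 and 2877 counts in HM, against 23 and 1 in TM (adjusted p = 0.000721 and 0.000721), and did not pass between HM and PB (adjusted p = 0.548 and 0.236). Among the PB libraries, PB9 and PB10 held 148 and 71.8 CPM of HOXA9, against at most 1.02 CPM in the other 8, and 27.4 and 33.3 CPM of HOXA10, against at most 0.0761 CPM. Both genes passed between HM and PB with the block (adjusted p = 0.0172 and 0.00564). HOXC8 was lower in HM than in TM and in PB (log2 changes -3.37 and -3.97, adjusted p = 0.000721 and 5.06e-06). ZNF385A, a zinc finger protein chosen after its values were seen, had 1.44, 4.87 and 11.4 CPM in HM, against 3.04, 26.5 and 69.2 in LDM, 27.4, 51.8 and 94.3 in TM and 15.8, 51.3 and 105 in PB (adjusted p = 1.79e-05, 1.68e-06 and 9.58e-08).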

How the data were processed

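The deposited table holds raw read counts and FPKM values per gene for 40 libraries, 10 for each of 4 cuts of pork, per the file headers. Per the labels' protocols, total RNA went into a stranded KAPA kit. Trimming, alignment and counting tools are listed in the submitters' processing notes as cutadapt 1.15, HISAT2 2.0.5 and HTSeq 0.9.1, with Sscrofa11.1 as the assembly, and no source used here gives HTSeq's strand setting. Overlapping gene models may therefore share reads, and values of HADHB, BGN, CHRNE, AQP7, ACACA, TNNI2, MYLK4 and ATP6, among others, are uncertain to that extent. The authors' FPKM values equal the counts scaled by library total and gene length for 100% of values (tolerance 0.001) and were used for the isoform shares. Of 21280 genes, 14883 had a symbol in the table, 1 is the joint myosin model and 5079 have none. Another 1317 took a symbol from annotation tables, by gene identifier or, where none matched, by 50% reciprocal overlap in the same assembly. Libraries were grouped by title. The library titled PB1 has longissimus in its tissue field and was kept as PB.

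The test on the raw counts was that of edgeR (version 4.0.16, under R 4.3.3), with TMM scaling, filterByExpr, a quasi-likelihood fit (robust) across the 40 libraries in which cut was the only factor, and Benjamini-Hochberg adjustment over 11713 genes. The SE is the absolute log2 change divided by the square root of F. CPM values are raw counts per 1000000 of the library total. The code was tested on simulated counts with known changes. The labels do not say that libraries came from separate pigs, so p-values measure the spread between libraries, which may be partly technical. Libraries with the same number deviated together between HM and LDM (correlations of 0.102 to 0.510, over 0.1 in 10 of 10 pairs). For 8 of 10 HM libraries, the LDM library that correlated best was the one with the same number. A fit with the library number as a block is therefore given where it changes a call or moves a count by over 1.5 times. The permutation tests took the libraries as unpaired.

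Among genes with a symbol that passed an adjusted p of 0.05 and averaged 1 CPM or more in whichever cut was higher, the 10 highest and 10 lowest log2 changes are named. Each of 32 gene lists adds up to 4 members by adjusted p, and a fixed set of genes is named whatever its result. The lists and genes were chosen with earlier results of these data known, and genes outside the rule were named after their values were seen. The alternatives were DESeq2 1.42.0, limma-voom (limma 3.58.1), DESeq2 size factors, other filters, the block, fits restricted to the 20 libraries being compared, scaling without mitochondrial genes, and libraries left out. No sequences were used here, and 1 gene that the naming rule picked is not reported here.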

Additional observations from a re-analysis of the deposited data

Results flagged for a closer look

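A single library stood apart from the other 9 of its cut for 20 of 344 combinations of a named gene and a cut. Chance gives about 1 in 20. The gap of the library to its nearest neighbour, as a share of the range of the cut in TMM-scaled log2 CPM, had to pass the 95% critical value of Dixon's test for 10 values. Each gap is given with the level of the library. HM6 was high for ACTA2 (0.526, 3168 CPM), MYH11 (0.499, 2592 CPM), MYLK (0.626, 483 CPM) and SIM1 (0.655, 2.35 CPM), and low for SIM2 (0.597, 0 CPM). HM5 was high for EGR1 (0.533, 4903 CPM) and TEAD4 (0.557, 223 CPM) and low for CAPN3 (0.471, 238 CPM) and HOXA11 (0.547, 3.74 CPM). HM7 was high for TRIM55 (0.548, 162 CPM) and low for IRX3 (0.472, 0.137 CPM). HM9 was high for PRKAG3 (0.496, 156 CPM) and low for CPT2 (0.508, 25.8 CPM). Among the LDM libraries, LDM2 was high for PCK1 (0.550, 15.3 CPM), LDM3 was high for BGN (0.490, 42.1 CPM), LDM4 was high for CLCA4 (0.485, 0.172 CPM) and HOXA11 (0.625, 0.287 CPM) and LDM6 was high for ALAS2 (0.590, 3.6 CPM) and MYLK4 (0.511, 3.95 CPM), and LDM2 was low for HOXD9 (0.479, 7.74 CPM).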

How the results depend on the processing

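All 4 counts of genes between HM and LDM stayed within 1.5 times under each of 11 alternatives, with 1632 to 2279 genes higher and 1654 to 2237 lower in HM. The share of calls that were higher was 50.8% in all libraries and 42.9% without HM6 and HM9, and between HM and PB it was 51.0%, against 33.8% without that pair and 37.0% when mitochondrial genes were taken out before scaling. The median log2 change of all tested genes lay at most at 0.11, with no filter on low counts. Leaving out HM6 alone or LDM3 and LDM4 was added after seeing the data. Over the genes named or listed, calls between HM and LDM that were lost numbered 8 with limma-voom, 8 without LDM3 and LDM4, 6 without HM6, 6 without HM6 and HM9, 6 with no filter, 4 with the block, 2 with the 20 libraries of the pair, and 1 each with DESeq2, its size factors and scaling without mitochondrial genes. Beside the calls given with the results above, the replicate block changed no other call between HM and LDM among the genes named there.

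The counts between HM and TM were small and moved most. Higher in HM were 107 genes with DESeq2, 172 with limma-voom and 109 with the block. Lower in HM were 92 with DESeq2, 140 with limma-voom, 104 with the block and 29 with the 20 libraries of the pair. At 2-fold or more, 57 and 65 genes were higher and 32 and 36 lower with DESeq2 and limma-voom, and 29 were lower without HM6 and HM9. Between HM and PB, 1053 genes were higher without HM6 and HM9, and 197 by 2-fold or more. The log2 change of CD14, a myeloid marker, was -0.05 between HM and PB (edgeR adjusted p = 0.945) and 0.93 with limma-voom (adjusted p = 0.0279). The causes of these moves were not tested. For a gene with no counts in a cut, such as HOXA13 in LDM, the fitted log2 change depends on the prior count. Fitted values from limma-voom were lower than in edgeR for HOXA13 and MYLK4 (8.67 and 4.68). They were higher for HOXC11 and HOXA10 (6.49 and 6.87). MYLK4 and HOXA10 had 316 and 291 counts over the LDM cut, and the causes of these differences between tools were not tested.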

Other observations

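COMP, a matrix protein of cartilage and tendon, was below the filter. It had 468 counts over the HM cut, against 0 over the LDM cut, and its 26.3 CPM in HM4 stood above 1.34 CPM in the next HM library. In TM it had 46 counts and in PB 464.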
